A study of Mus musculus with 12 samples.

Results

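The genes of the proteasome, the protease that degrades ubiquitinated proteins in the cytosol and nucleus, were followed in livers of 2 mouse models of obesity. The members were chosen by name: protein-coding genes whose symbol begins with Psm, one letter from a to g and a digit, with a line that the authors' comparison marked as usable and, where a gene had several such lines, the one with the highest mean of both groups. This gave 43 genes, 40 in the table of the dietary model and 38 in that of the genetic model, out of 9474 and 9151 protein-coding genes chosen the same way. Psmc3ip, a meiotic recombination factor named after a proteasome gene, matches the pattern and was kept out of all counts, which leaves 39 and 37 proteasome genes.

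The dietary model compared mice on a high-fat diet (HFD, 54 kJ% fat for 30 weeks) with mice on a control diet (CD, 11 kJ% fat). The genetic model compared db mice, which carry the Leprdb allele of the leptin receptor, with misty mice, which carry the Dock7m allele, both on the diet with 11 kJ% fat. Misty mice served as the lean controls of db mice in the study's methods, whereas the series text counts misty as a further obesity model and the label of the misty genotype names both alleles. The labels give 3 livers per group, 12 in all, an age of 36 weeks and the strain C57BL/6 for every animal. The methods give a younger age, a BKS background and another number of mice per genotype for db and misty, so age, background and number of livers behind each pooled value are uncertain there, and they describe the mice as male.

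Whole-liver RNA was depleted of ribosomal RNA and sequenced from strand-specific libraries, and the tables hold 1 pooled value per group in FPKM, fragments scaled to transcript length and to the number of mapped fragments. No value of a single liver was available here, so no spread between animals, no standard error and no p-value could be given, and every difference described is between 2 pooled values. The ratio is that of obese over control, and 1.5-fold or more in either direction is the size used for counting. The 2 tables were normalized separately, so ratios, but no levels, are set side by side. In bulk liver, fewer cells of a type and less RNA per cell cannot be told apart.

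The proteasome has a barrel-shaped core particle, the 20S, of outer alpha and inner beta rings, and a cap, the 19S, whose ATPases unfold substrates and whose other subunits bind and remove ubiquitin. Of the beta subunits, Psmb5, Psmb6 and Psmb7 carry the chymotrypsin-like, caspase-like and trypsin-like active sites. Interferon gamma induces the replacements Psmb8, Psmb9 and Psmb10, which form the immunoproteasome, and the activator subunits Psme1 and Psme2 (PA28 alpha and beta), which favour the production of peptides for MHC class I. The transcription factors NFE2L1 and NFE2L2 act on constitutive subunit genes through antioxidant response elements, and the NF-Y factor binds CCAAT boxes in many of them.

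Promoter sequences from RefSeq (GRCm38.p6, 250 bases before to 50 bases after the start site) were found for 34 of the 42 proteasome genes. They were searched on both strands for the antioxidant response element core TGACNNNGC, the interferon response element GAAANNGAA, the gamma-activated site TTCNNNGAA and the NF-Y box CCAAT. No matches of different motifs overlapped in these promoters. The sequences of the chymotrypsin-like and caspase-like pairs and of Psme1 are shown because the ratios described below set these genes apart from, or among, the other subunits. Each is printed from 250 bases before to 30 bases after the start site, with the match in capitals. In the 2 immunoproteasome genes, which lie close together on chromosome 17, the capitals mark a gamma-activated site in Psmb8 (chr17:34197945-34198224, plus strand) that begins 97 bases before the start, and an NF-Y box in Psmb9 (chr17:34187301-34187580, minus strand) 8 bases before it.
Psmb8: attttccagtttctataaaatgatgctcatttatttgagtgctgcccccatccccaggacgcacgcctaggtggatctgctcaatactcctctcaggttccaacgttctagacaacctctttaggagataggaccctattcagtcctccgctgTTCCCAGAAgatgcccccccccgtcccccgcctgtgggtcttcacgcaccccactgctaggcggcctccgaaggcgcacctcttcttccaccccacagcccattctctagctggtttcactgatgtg
Psmb9: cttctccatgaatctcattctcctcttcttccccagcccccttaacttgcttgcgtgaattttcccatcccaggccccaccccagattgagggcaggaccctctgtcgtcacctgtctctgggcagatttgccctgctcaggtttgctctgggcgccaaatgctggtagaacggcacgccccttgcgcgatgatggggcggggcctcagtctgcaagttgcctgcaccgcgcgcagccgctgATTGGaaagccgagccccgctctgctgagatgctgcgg
In Psme1 (chr14:55578244-55578523, plus strand) the capitals mark an interferon response element, read on the other strand, that begins 10 bases after the start.
Psme1: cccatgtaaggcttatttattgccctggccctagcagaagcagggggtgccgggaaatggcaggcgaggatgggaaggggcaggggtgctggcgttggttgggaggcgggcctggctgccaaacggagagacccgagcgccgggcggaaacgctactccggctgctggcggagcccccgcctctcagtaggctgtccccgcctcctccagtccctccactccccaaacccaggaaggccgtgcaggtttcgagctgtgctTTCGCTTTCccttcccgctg
In the constitutive partners Psmb5 (chr14:54617966-54618245, minus strand) and Psmb6 (chr11:70525107-70525386, plus strand) the capitals mark an antioxidant response element core, 47 and 9 bases before the start.
Psmb5: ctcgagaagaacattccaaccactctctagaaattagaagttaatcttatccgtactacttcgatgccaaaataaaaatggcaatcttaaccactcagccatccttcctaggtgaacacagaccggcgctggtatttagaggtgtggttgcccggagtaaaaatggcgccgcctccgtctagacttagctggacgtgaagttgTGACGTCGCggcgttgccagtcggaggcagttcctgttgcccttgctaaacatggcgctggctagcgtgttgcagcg
Psmb6: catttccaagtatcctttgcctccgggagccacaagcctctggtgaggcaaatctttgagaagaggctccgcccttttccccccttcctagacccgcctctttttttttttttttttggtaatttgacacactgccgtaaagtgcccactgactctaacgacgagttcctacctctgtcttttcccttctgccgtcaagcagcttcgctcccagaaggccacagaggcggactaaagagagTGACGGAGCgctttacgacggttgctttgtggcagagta
The antioxidant response element core was found in 6 of the 34 genes (Psmb5, Psmb6, Psmc6, Psmd9, Psmd12 and Psme4), or 17.6%, against 14% of all 27025 genes with a promoter in the table, where a gene with several start sites counts once. The interferon response element was found in 7 of 34, or 20.6%, against 9.76%, and 6 of those 7 are not in the interferon-inducible set (Psmb3, Psmb4, Psmc2, Psmd4, Psmd9 and Psmg4). The gamma-activated site was found in 3 of 34, or 8.82%, against 9.55%, and the NF-Y box in 12 of 34, or 35.3%, against 41.1%. Psmb9, Psmb10 and Psme2 of the interferon-inducible set held neither the interferon response element nor the gamma-activated site. Counted by promoter, 12.4%, 8.56%, 8.3% and 37.4% of the 32851 windows held the motifs in that order. A match describes the letters in this window and no binding.

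The lines differ in what they measure, and this bears on every count. Each line is 1 assembled transcript and not the total of a gene, and the order of the authors' transcript numbers along the chromosomes was used to read whether a transcript was assembled on the strand of its gene or on the opposite one. In the dietary table, 13 of the 39 proteasome lines lay on the opposite strand, at 0.254 to 2.08 FPKM, and 26 on the gene's own strand, at up to 97.6 FPKM. In the genetic table, 10 of 37 lay on the opposite strand, at 0.207 to 2.71 FPKM. Among all genes the opposite strand was more frequent, with 52.2% and 51.9% of lines. Where a subunit had usable lines on both strands, both can be read. Psmb4 had 83.3 FPKM in CD and 67.1 in HFD on its own strand, and 5.87 and 4.54 on the opposite strand. Psmb5 had 33.2 and 31.6 FPKM on its own strand, and 0.284 and 0.223 on the opposite strand. An opposite-strand line was not taken as a measure of the messenger RNA of its gene, and what it measures was not tested. The counts below are therefore also given for own-strand lines with a mean of at least 10 FPKM, a set chosen after the values were seen.

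Of the listed proteasome genes, several had no usable line. These were Psma3, Psma4, Psma7, Psmb11, Psmd1, Psmd2, Psmd8, Psme2b and Psme3 in the dietary table, and Psma4, Psma7, Psmb11, Psmc1, Psmd1, Psmd8, Psmd14, Psme2b and Psme4 in the genetic table. Their lines were near 0 for genes that every cell uses, such as the alpha subunit Psma7, so a low value here need not be a low level in the liver. Psmb11, the catalytic subunit of the thymus, had no usable line in either table. Psmb10 was analysed in the dietary table only.

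After HFD, proteasome genes were mostly lower, most of them by less than 1.5-fold. Of 39 genes, 32 were lower by any amount (82.1%, against 50.2% of all genes), and the median log2 ratio was -0.27, against 0.00 for all genes. Counting only own-strand lines at 10 FPKM or more, 15 of 16 were lower (93.8%), against 62.8% of the 877 such lines of all genes, with a median log2 ratio of -0.24 against -0.10. Few passed 1.5-fold. Psmb9 and Psme1 were higher by that much, 2 of 39 (5.13%, against 16.9% of all genes), and Psmb6, Psmb8, Psmc6 and Psmd9 were lower, 4 of 39 (10.3%, against 8.69%). Among the 16 abundant own-strand lines none passed 1.5-fold in either direction, where 6.84% of all such lines were higher and 9.46% lower by that much. The plot of FPKM by subunit shows these lines.

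**Figure D1:**
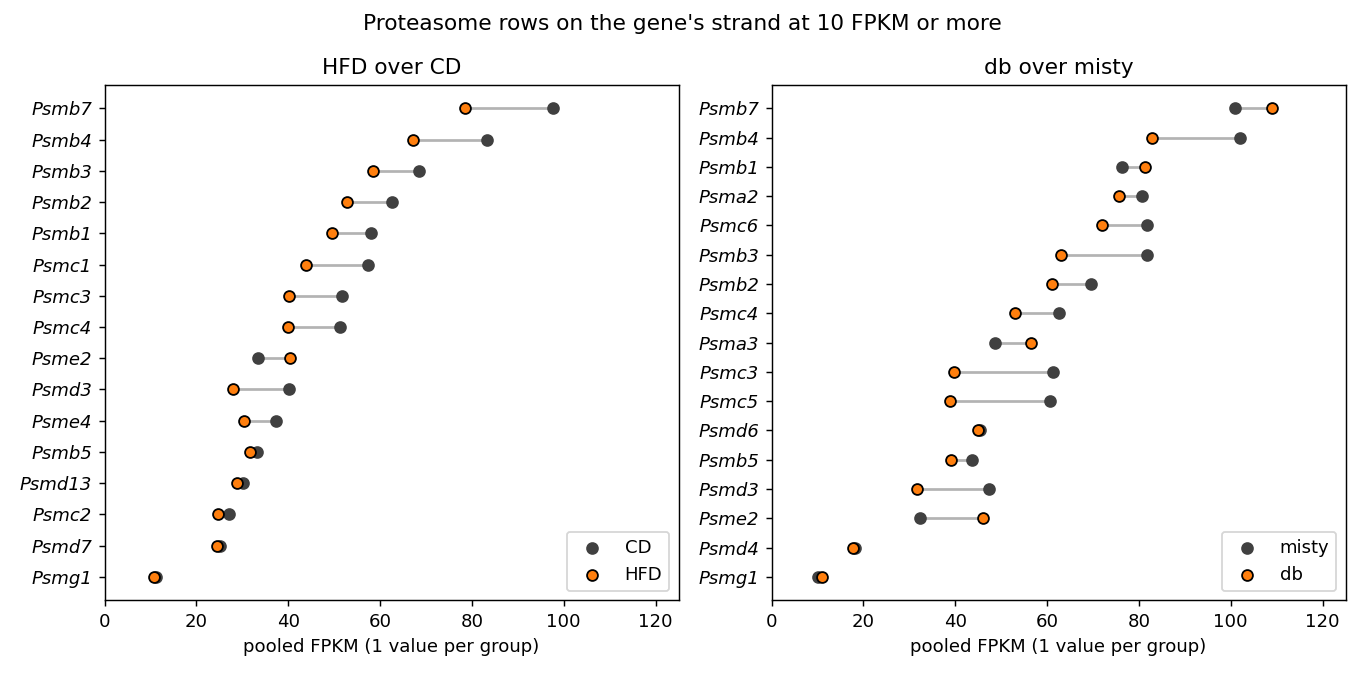
Pooled FPKM (horizontal axis, linear) of each proteasome line on the gene's strand with a mean of at least 10 FPKM, control group in grey and obese group in orange, 16 lines for HFD over CD and 17 for db over misty. In the dietary model the orange point lies left of the grey one for every subunit except Psme2, and in the genetic model for 12 of 17.

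The constitutive beta ring was lower throughout after HFD, 7 of 7 (against 50.2% of all genes) with a median log2 ratio of -0.25. The largest difference on the gene's own strand was in Psmb7, the trypsin-like subunit, with 97.6 FPKM in CD and 78.5 in HFD (1.24-fold lower). Psmb4, a structural subunit that is the last to enter the ring, was at 83.3 and 67.1 FPKM (1.24-fold lower). Psmb5, the chymotrypsin-like subunit, was the least different, at 33.2 and 31.6 FPKM (1.05-fold lower). The structural subunits Psmb1, Psmb2 and Psmb3 lay between them, each 1.17-fold to 1.19-fold lower. The line of Psmb6 was on the opposite strand, at 1.88 and 1.21 FPKM (1.55-fold lower), and was not taken as a measure of the caspase-like subunit itself. Summed over the 7 lines, the ring was at 405 FPKM in CD and 339 in HFD.

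The alpha ring, which gates the entrance to the barrel, was hardly measured in the dietary table. All 5 lines were on the opposite strand, 4 of them lower (against 50.2% of all genes). They ran from Psma5 at 0.940 and 0.704 FPKM (log2 ratio -0.42) to the testis subunit Psma8 at 0.254 and 0.303 FPKM (0.26).

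The ATPases of the 19S base were also lower after HFD, 6 of 6 (against 50.2% of all genes) with a median log2 ratio of -0.36. Psmc1 was at 57.3 FPKM in CD and 43.9 in HFD (1.30-fold lower). Psmc3 was at 51.7 and 40.1 FPKM (1.29-fold lower). Psmc4 was at 51.3 and 40 FPKM (1.28-fold lower). These 3 ATPases, all parts of 1 hexameric motor, thus had nearly the same ratio. Psmc2 was at 27.2 and 24.6 FPKM (1.11-fold lower). The extremes of the class were 2 lines below 5 FPKM, Psmc6 at 3.3 and 2.06 FPKM (1.60-fold lower) and Psmc5 at 4.84 and 4.56 FPKM (1.06-fold lower). The same annotated transcripts were among the lines above 10 FPKM in the genetic table, so these low lines, and the Psmc6 ratio past 1.5-fold, need not reflect the main signal of the genes.

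Of the other 19S subunits, 8 of 8 were lower after HFD (against 50.2% of all genes), with a median log2 ratio of -0.32. However, 5 of these lines were on the opposite strand. Through own-strand lines alone, 3 of 4 were lower, with a median of -0.05, beside 3098 of 5774 such lines of all genes. Psmd3, a scaffold subunit of the lid, had the lowest ratio of all abundant lines, with 40.1 FPKM in CD and 28 in HFD (1.43-fold lower). Its neighbours in the lid differed far less. Psmd13 was at 30.1 and 28.8 FPKM (1.04-fold lower). Psmd7, the partner of the deubiquitinase Psmd14, was at 25.1 and 24.5 FPKM (1.03-fold lower) and was the least different line of the class. Of the chaperones that assemble the 19S base, Psmd10, also known as gankyrin, was at 4.16 and 5.55 FPKM (1.33-fold higher), whereas Psmd5 was at 0.985 and 0.732 FPKM (1.35-fold lower) and Psmd9 was at 0.985 and 0.645 FPKM (1.53-fold lower) on the opposite strand.

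Pooled over the 25 constitutive core subunits of both particles with a usable line, every ratio was below 1 after HFD, with a median log2 ratio of -0.31 and a sum of 707 FPKM in CD and 585 in HFD. Among all genes, 50.2% were lower. However, 10 of these 25 lines were on the opposite strand. Through own-strand lines alone, 15 of 17 core subunits were lower, with a median of -0.23, beside 3098 of 5774 such lines of all genes, and the exceptions were the low own-strand lines of Psma2, at 0.195 and 0.228 FPKM, and Psmd6, at 0.733 and 0.77 FPKM. On own-strand lines at 10 FPKM or more it was 13 of 13, with a median of -0.25, beside 62.8% of such lines of all genes. Markers of hepatocytes moved the same way in these livers: all 5 markers with a usable line, of 9, were lower, with a median log2 ratio of -0.37 and a summed level of 9791 FPKM in CD and 6958 in HFD. Apoa1 alone was at 3659 and 1847 FPKM. Of these lines only that of Hnf4a was on the opposite strand, at 30.9 and 23.9 FPKM, and its own-strand line was at 0.265 and 0.433 FPKM, so that 4 of 5 were lower through own-strand lines. Alb and Apob, which define the cell type, were listed at 0 in both groups of both tables, which for a liver is no biological level. The part of hepatocyte content in the lower subunit values was not tested.

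**Figure D2:**
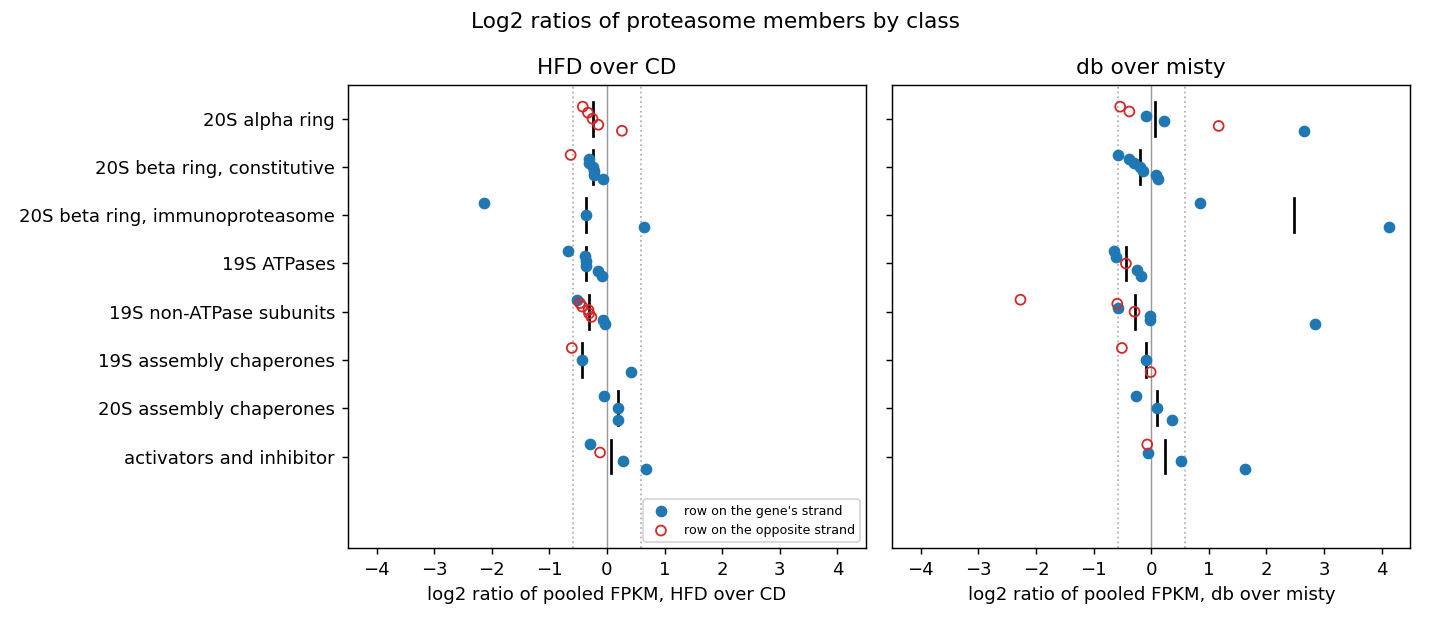
Log2 ratio of pooled FPKM (horizontal axis) of each proteasome gene by class (rows), HFD over CD on the left and db over misty on the right. Blue points are lines on the gene's strand, open red points lines on the opposite strand, black bars class medians and dotted lines 1.5-fold. The ATPases lie left of 0 in both panels. Of the immunoproteasome lines, 2 of 3 lie left of 0 in the HFD panel and both lines in the db panel lie right of it.

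The interferon-inducible members did not share a direction after HFD. Of the immunoproteasome subunits alone, 2 of 3 were lower (against 50.2% of all genes), with a median log2 ratio of -0.37 beside -0.25 for the constitutive beta ring. Of Psmb8, Psmb9, Psmb10, Psme1 and Psme2, 3 of 5 were higher, with a median log2 ratio of 0.27, which is the ratio of Psme2. Psme1, PA28 alpha, was at 1.99 FPKM in CD and 3.15 in HFD (1.59-fold higher). Psmb9, the replacement of the caspase-like subunit Psmb6, was at 4.17 and 6.57 FPKM (1.57-fold higher). Both lay just past the size used for counting, at low levels. Psme2, PA28 beta, was at 33.5 and 40.3 FPKM (1.20-fold higher) and was the one higher line among the 16 abundant ones. The remaining replacements went the other way. Psmb8, the chymotrypsin-like replacement, was at 0.826 and 0.188 FPKM (4.39-fold lower), and Psmb10, the trypsin-like replacement, at 2.14 and 1.65 FPKM (1.29-fold lower). The Psmb8 line was thus at 2.49% of the Psmb5 line in CD and 0.595% in HFD, and the Psmb10 line at 2.19% and 2.1% of the Psmb7 line. Both Psmb8 values were below 1 FPKM, and this line need not hold the main signal of the gene. With a pseudocount of 1 FPKM, the log2 change of Psmb8 over Psmb5 was -0.55 instead of -2.06. All 5 lines were on their gene's strand.

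The other regulators showed no common direction after HFD. Psme4, the PA200 activator known for its part in spermatogenesis and DNA repair, was at 37.4 FPKM in CD and 30.4 in HFD (1.23-fold lower) and was the lowest ratio of its class. The inhibitor Psmf1 (PI31) was at 0.862 and 0.793 FPKM on the opposite strand. Of the chaperones that assemble the 20S core, Psmg1 was at 11.2 and 10.8 FPKM (1.03-fold lower). Its dimer partner Psmg2 was at 6.87 and 7.87 FPKM (1.15-fold higher) and Psmg4 at 1.28 and 1.47 FPKM (1.15-fold higher). None of these reached 1.5-fold.

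Markers of immune cells were higher in the same HFD livers. Of the macrophage markers, 7 of the 8 with a usable line passed 1.5-fold, and their summed level was 42 FPKM in CD and 96.8 in HFD, with Lyz2 at 24.7 and 62.6 FPKM and Cd68 at 7.33 and 14.7 FPKM on their own strand. Through own-strand lines alone, 6 of 6 passed it, with a sum of 32.8 and 80.3 FPKM. Of the lymphocyte markers, 6 of 11 passed it, with a sum of 2.54 and 5.38 FPKM, though 8 of these 11 lines were on the opposite strand. The neutrophil markers, 3 of 3 past it, summed to 3.76 and 13.1 FPKM with Ly6g listed at 0, and the dendritic cell markers, 2 of 4, to 2.33 and 4.26 FPKM. Immune cells carry the immunoproteasome constitutively, and their part in the Psmb9 and Psme1 values was not tested.

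In the genetic model the picture was less uniform. Of 37 proteasome genes in db livers, 25 were lower by any amount (67.6%, against 48.4% of all genes), and the median log2 ratio was -0.09, against 0.02 for all genes. On own-strand lines at 10 FPKM or more, 12 of 17 were lower (70.6%, against 41.1% of 837 such lines), with a median log2 ratio of -0.15 against 0.11. Past 1.5-fold, 6 of 37 were higher (16.2%, against 17.5%), namely Psma5, Psma8, Psmb8, Psmb9, Psmd7 and Psme1, and 4 were lower (10.8%, against 13.8%), namely Psmc3, Psmc5, Psmd11 and Psmd12. These shares were near the background. None of the 6 higher lines reached a mean of 10 FPKM: among the 17 abundant lines, 0 were higher by 1.5-fold (against 20.9%) and 2 were lower (11.8%, against 12.3%), the ATPases Psmc3 and Psmc5.

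The ATPases were all lower in db livers, 5 of 5 (against 48.4% of all genes), with a median log2 ratio of -0.44. Psmc5 was at 60.6 FPKM in misty and 38.8 in db (1.56-fold lower). Psmc3 was at 61.3 and 39.7 FPKM (1.54-fold lower). Psmc4 was at 62.7 and 53.1 FPKM (1.18-fold lower). Psmc6 was the least different, at 81.7 and 72 FPKM (1.13-fold lower). Neighbours in the hexamer therefore spread from 1.13-fold to 1.56-fold in this model. The Psmc2 line, at 1.44 and 1.06 FPKM, was on the opposite strand.

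The beta ring was lower in 5 of 7 constitutive subunits in db livers (against 48.4% of all genes), with a median log2 ratio of -0.19. Psmb6 was at 11.9 FPKM in misty and 7.95 in db (log2 ratio -0.58), just short of the size used for counting. Psmb3 was at 81.7 and 63 FPKM (1.30-fold lower), and Psmb4 at 102 and 82.9 FPKM (1.23-fold lower). Psmb5 was at 43.6 and 39.1 FPKM (1.11-fold lower). Psmb7 was the highest ratio of the ring, at 101 and 109 FPKM (1.08-fold higher), and Psmb1 was at 76.3 and 81.3 FPKM (1.07-fold higher). So the 3 catalytic subunits did not share a direction here, unlike the own-strand lines of Psmb5 and Psmb7 after HFD.

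In the alpha ring, 2 abundant lines were measured in db livers. Psma2 was at 80.6 FPKM in misty and 75.6 in db (1.07-fold lower), and Psma3 was at 48.7 and 56.5 FPKM (1.16-fold higher). The lines past 1.5-fold were far below them. Psma5 was at 0.148 and 0.928 FPKM (log2 ratio 2.65), and the testis subunit Psma8 at 0.237 and 0.532 FPKM on the opposite strand. The lowest ratio of the ring, in Psma1 at 1.69 and 1.17 FPKM (1.45-fold lower), was also on the opposite strand.

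Psmd3 was again the most different abundant line of the lid, with 47.3 FPKM in misty and 31.7 in db (1.49-fold lower). The lid and base subunits Psmd6, at 45.5 and 45 FPKM, and Psmd4, the ubiquitin receptor, at 18.1 and 17.7 FPKM, hardly differed. Psmd7 was at 1.2 and 8.63 FPKM (7.18-fold higher) on a line far below those of Psmd3 and Psmd6. In the dietary table the same annotated transcript was among the lines above 10 FPKM, so this low line need not hold the main signal of the gene. Its opposite-strand line was at 2.02 and 1.2 FPKM. Among the lines chosen for each gene, the lowest ratios of the class belonged to opposite-strand lines, Psmd11 at 1 and 0.207 FPKM (4.84-fold lower) and Psmd12 at 1.23 and 0.816 FPKM (1.51-fold lower). Psmd2, a scaffold subunit of the base, was at 2.71 and 2.22 FPKM (1.22-fold lower) on the opposite strand, and its fainter own-strand line was at 0.332 and 0.0752 FPKM (4.41-fold lower). Of the 19S chaperones, Psmd9 was at 1.31 and 0.918 FPKM (1.42-fold lower) on the opposite strand, Psmd5 was at 1.11 and 1.1 FPKM on the opposite strand, and Psmd10 was at 3.8 and 3.56 FPKM (1.07-fold lower).

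All 4 interferon-inducible members with a usable line were higher in db livers, with a median log2 ratio of 1.24, and 3 of them passed 1.5-fold, which 17.5% of all genes did in that direction. The fifth, Psmb10, was not analysed in this table. Psmb8 was at 0.095 FPKM in misty and 1.65 in db (17.4-fold higher), a ratio over a value close to 0. Psme1 was at 1.6 and 4.97 FPKM (3.10-fold higher). Psmb9 was at 2.01 and 3.63 FPKM (1.80-fold higher). The abundant member, Psme2, was at 32.3 and 46.1 FPKM (log2 ratio 0.51), short of 1.5-fold and the highest ratio among the 17 abundant lines. Relative to their constitutive partners, the Psmb8 line was at 0.218% of Psmb5 in misty and 4.22% in db, and the Psmb9 line at 16.9% and 45.7% of Psmb6. The Psme1 line was at 4.95% and 10.8% of that of its ring partner Psme2. These percentages compare single lines and are no proportions of subunits. The low lines of Psmb8, Psmb9 and Psme1 need not hold the main signal of their genes. Psme2b, a close copy of Psme2 with which reads could be shared, was at 0.013 FPKM or less in both tables.

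**Figure D3:**
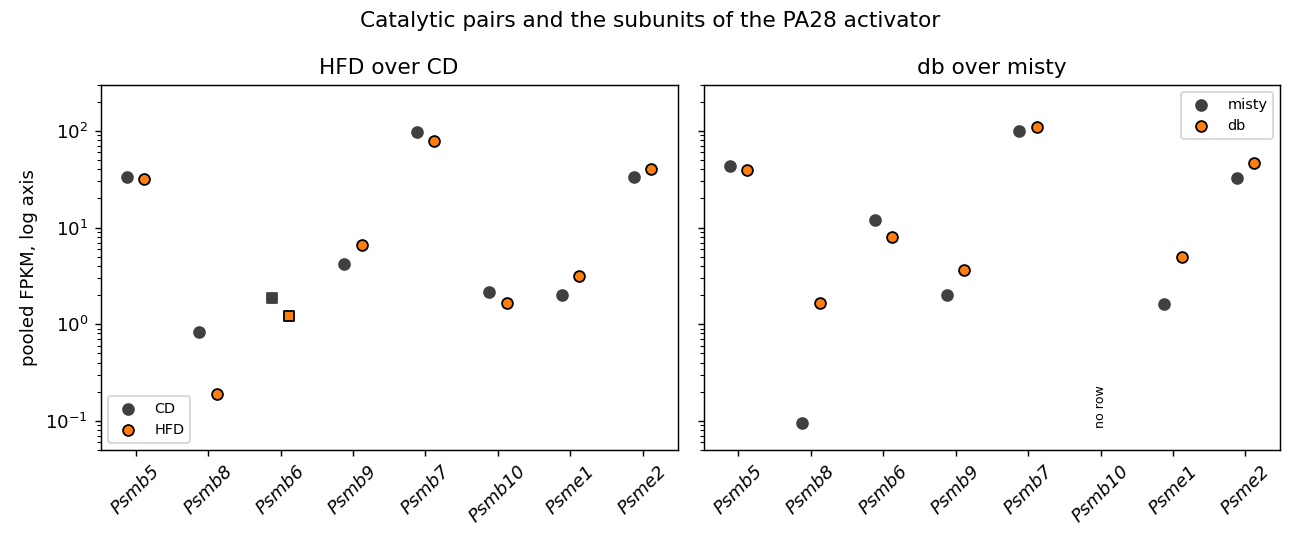
Pooled FPKM on a log axis of each constitutive catalytic subunit beside its immunoproteasome replacement, and of Psme1 and Psme2, control in grey and obese in orange. Squares mark the opposite-strand line of Psmb6 in the dietary table. Psmb9, Psme1 and Psme2 are higher in the obese group of both panels, and Psmb8 is lower in HFD and higher in db.

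Immune cell markers in db livers had few usable lines and mixed ratios. Of the macrophage markers, 1 of 7 with a usable line was 1.5-fold higher and 1 lower, and their summed level was 30 FPKM in misty and 27 in db, with a median log2 ratio of 0.06. Of these 7, Cd68, at 2.32 and 3.28 FPKM, Cd5l, at 1.6 and 2.66 FPKM on the opposite strand, Adgre1 and Ptprc were higher. Lyz2, at 12.4 and 11 FPKM, and the opposite-strand lines of Cd14, at 4.72 and 2.05 FPKM, and Clec4f, at 4.47 and 3.2 FPKM, were lower. The lymphocyte markers had 2 usable lines of 14, which summed to 0.508 and 0.381 FPKM. The neutrophil markers summed to 2.39 and 2.15 FPKM, with S100a8 at 0.834 and 1.36 FPKM, S100a9 at 1.1 and 0.348 FPKM and Ly6g listed at 0, and the 1 dendritic cell marker, Zbtb46, was at 1.34 and 1.13 FPKM. The part of immune cells in the Psmb8, Psmb9, Psme1 and Psme2 values of db livers was not tested. Hepatocyte markers summed to 6548 and 3262 FPKM, with 4 of 6 lower (against 48.4% of all genes), and their part in the subunit values was not tested.

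The remaining regulators differed little between misty and db livers. Psme3, the nuclear activator PA28 gamma, was at 4.28 FPKM in misty and 4.15 in db (1.03-fold lower). Psmf1 was at 0.927 and 0.881 FPKM on the opposite strand. Of the 20S chaperones, Psmg2 was at 6.28 and 8.08 FPKM (1.29-fold higher), Psmg1 at 10.1 and 10.9 FPKM (1.07-fold higher) and Psmg4 at 2.36 and 1.98 FPKM (1.19-fold lower).

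Both models can be read side by side for 34 proteasome genes, and they share no animals. Of these, 21 were lower in both (61.8%, against 30.1% of all genes with a line in both tables), 5 were higher in both, 6 were lower in HFD and higher in db and 2 the reverse. On own-strand lines at 10 FPKM or more in both tables, 7 of 11 were lower in both (63.6%, against 32.3% of 597 such lines of all genes), namely Psmb2, Psmb3, Psmb4, Psmb5, Psmc3, Psmc4 and Psmd3. Psme2 was higher in both, and Psmb1, Psmb7 and Psmg1 were lower in HFD, at log2 ratios of -0.23, -0.31 and -0.05, and higher in db, at 0.09, 0.11 and 0.10. Psmd3 was the lowest of the 11 after HFD, at a log2 ratio of -0.52, and next to Psmc3 (-0.62) in db, at -0.58. Psmb8 had opposite directions in the models, at a log2 ratio of -2.14 and 4.12, on values under 2 FPKM.

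**Figure D4:**
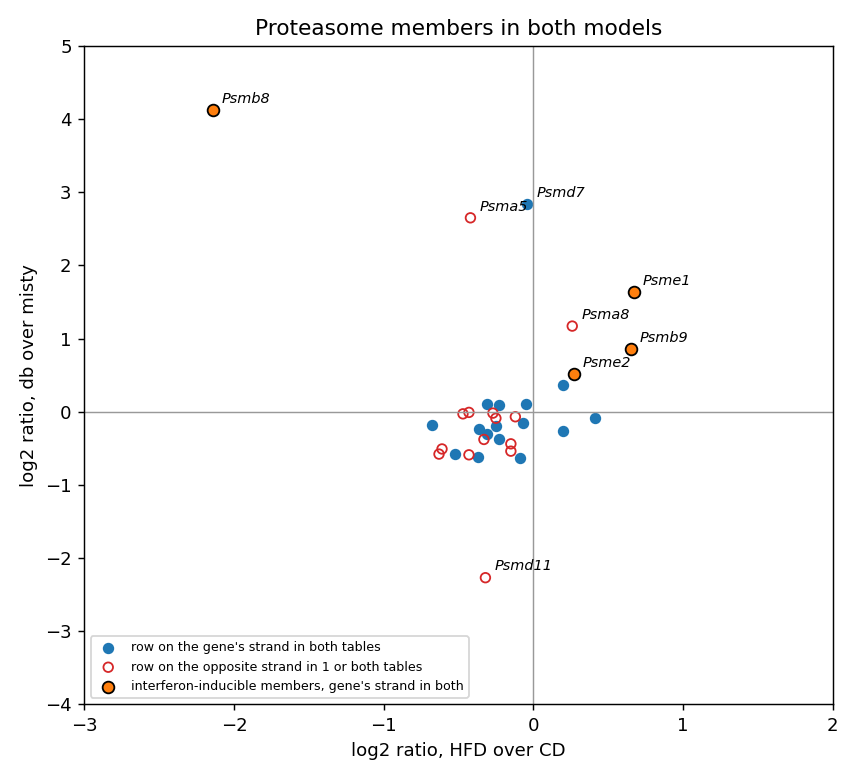
Log2 ratio of HFD over CD (horizontal axis) against db over misty (vertical axis) for the 34 proteasome genes with a line in both tables. Blue points are on the gene's strand in both, open red points on the opposite strand in at least one table, and orange points are interferon-inducible members. Most points lie in the lower left quadrant, and Psme1, Psmb9 and Psme2 in the upper right one.

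Genes that work with the proteasome but lie outside the Psm names were compared in the same way, with few usable lines. Of 11 other components and partners, 6 had one in the dietary table and none passed 1.5-fold. For AI314180, the gene of a protein that binds the proteasome, this was the opposite-strand line, at 1.51 and 1.24 FPKM, and its own-strand line was at 0.581 and 0.221 FPKM (2.63-fold lower). The 6 include Pomp, the maturation factor of the core, at 33.9 FPKM in CD and 35.3 in HFD, and the thioredoxin-like Txnl1, a 19S-bound reductase, at 19.7 and 17.2 FPKM. Of 5 with a usable line in db and misty, 1 passed it, the 19S-bound deubiquitinase Uchl5, at 4.64 FPKM in misty and 7.57 in db.

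Among 16 genes of ubiquitin, its activation and its delivery to the proteasome, 10 lines after HFD held 2 higher and 1 lower by 1.5-fold, shares near those of all genes (16.9% and 8.69%), with a median log2 ratio of -0.02. The ubiquitin gene Ubb was at 20.1 FPKM in CD and 17.8 in HFD. The lines past 1.5-fold were all low: Rps27a at 0.108 and 0.266 FPKM, the activating enzyme Uba1 at 0.37 and 0.582 and the protease Ddi2 at 0.681 and 0.412, the last on the opposite strand. In db livers 9 lines held 1 higher, Uba1 at 0.263 and 0.696 FPKM, and 2 lower, Rad23b at 0.247 and 0.133 and Nploc4 at 1.18 and 0.677 on the opposite strand, with a median of -0.28, where 17.5% of all genes were higher and 13.8% lower. Through the 5 own-strand lines alone the median was 0.12, with 1 higher and 1 lower. The shuttle Ubqln1 was at 24.6 FPKM in misty and 20.2 in db.

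Of 9 transcription factors of constitutive subunits, 3 had a usable line in each table, and Nfe2l1 had none. Nfe2l2, which encodes NRF2, was at 8.75 FPKM in CD and 12.5 in HFD (1.43-fold higher), and at 5.19 FPKM in misty and 9.13 in db (1.76-fold higher). It was thus higher in both models while most of the subunits were lower. The small MAF factor Maff was at 0.206 and 0.324 FPKM in the dietary table, and at 0.59 and 0.367 in the genetic table. Nfyb, a subunit of NF-Y, was under 1 FPKM in every group.

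Of 9 genes of interferon gamma signalling, 5 had a usable line in each table, with 1 higher and 1 lower by 1.5-fold in both comparisons, beside 16.9% and 8.69% of all genes after HFD and 17.5% and 13.8% in db. After HFD these were Ciita, at 0.305 and 0.67 FPKM, and the kinase Jak1, at 0.209 and 0.0111 FPKM. In db livers they were Jak2, at 0.141 and 0.362 FPKM, and Jak1, at 0.315 and 0.129 FPKM. Irf1, the factor through which interferon acts on immunoproteasome genes, was at 4.16 FPKM in misty and 5.25 in db. None of these lines except Irf1 was above 2 FPKM.

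Of 10 genes of class I antigen processing, 6 had a usable line in each table. After HFD, 3 were 1.5-fold higher, where 16.9% of all genes were. These were the trimming peptidase Erap1 at 0.00106 and 0.572 FPKM, Calr at 0.14 and 0.287 and H2-D1 at 0.338 and 0.627. All 3 lines were below 1 FPKM and need not hold the main signal of their genes. H2-K1 was at 8.22 and 7.72 FPKM on the opposite strand, and at 0.308 and 0.653 FPKM on its own strand. The abundant B2m, the light chain of class I, was at 723 FPKM in CD and 946 in HFD (1.31-fold higher). The peptide transporter Tap1 was at 0.661 and 0.708 FPKM. In db livers 2 were 1.5-fold higher, where 17.5% of all genes were. These were Erap1 at 1.18 and 2.66 FPKM and B2m at 8.07 and 14.1 on the opposite strand. H2-D1 was at 114 and 110 FPKM and H2-K1 at 22.9 and 27.5 FPKM on their own strand.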

How the data were processed

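According to the methods and the labels, the authors trimmed adapters, removed ribosomal reads with Bowtie2 2.2.9, aligned to GRCm38 with STAR 2.6.0c and assembled and compared transcripts with Cufflinks 2.2.1 and Cuffdiff. The authors deposited 1 table per model, with a pooled FPKM per group and transcript. Further columns with their own ratios, test statistics, p-values and calls were not used. Depth per liver is unknown, the 3 livers per group cannot be compared, and kits and instruments differ between labels and methods.

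The log2 ratio of obese over control was computed with no pseudocount in Python 3 with pandas. Genes with a 0 in a group, 12 and 22, were left out. A transcript's strand was read from its number: on 20 of 21 chromosomes locus starts rise through 3 blocks, read as plus, minus and no strand. The ratio and the choice of line were tested on simulated data. For the strand, the simulated lines were laid out in the assumed order, so that test could not show whether the authors' numbers follow it. Every member may be named, and values are given for those past 1.5-fold, the catalytic pairs, the regulators and the extremes of each class. Members, lists and the naming rule were chosen with earlier results of these data known, and 1 gene of the ubiquitin list is not reported here. Other pseudocounts, filters, summing, centring and folds were tried.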

Additional observations from a re-analysis of the deposited data

How the results depend on the processing

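No paired analysis was possible because each group is 1 pooled value, and for the same reason no liver could be left out. Of the alternatives for the main results, 86 left the value within 0.1 on the log2 scale or the count within 1.5 times, and 22 moved it. With a pseudocount of 1 FPKM, the counts past 1.5-fold after HFD were 0 higher and 1 lower instead of 2 and 4, the core median was -0.21 instead of -0.31, and the interferon-inducible median in db was 0.91 instead of 1.24. With a mean of 1 FPKM or more, 2 were lower after HFD and 3 higher in db instead of 6, and the inducible medians were 0.46 instead of 0.27 for HFD and 0.85 for db. With annotated transcripts usable in both tables the inducible median after HFD was also 0.46. Summing lines of any status gave 7 lower in db instead of 4 and a core median of -0.38 instead of -0.26. At the smaller of the other folds tried, 14 were lower after HFD and 11 in db. At 2-fold, 0 were higher and 1 lower after HFD, and 1 lower in db. Settings chosen after seeing the data were own-strand lines, with 2 lower after HFD, and own-strand lines at 10 FPKM or more, with 0 higher and 0 lower after HFD, 0 higher and 2 lower in db, and an inducible median of 0.51 in db, which is Psme2 alone. The log2 change of Psmb10 over Psmb7 after HFD, -0.06, was 0.07 with a pseudocount of 1 FPKM, and Psmb8 over Psmb5 went from -2.06 to -0.55 in HFD and from 4.27 to 1.43 in db. The medians of all members kept their direction under each setting.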
